A study of Bos taurus with 56 samples.

Results

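The contralateral ampulla of post-partum Holstein cows was compared with that of heifers in 14 of the 56 libraries of the series, chosen by their labels for region, side and metabolic group. They came from 5 nulliparous heifers and from 9 cows that had calved once, 4 of them lactating and 5 non-lactating, the last dried off at calving and never milked. Cows were slaughtered at 60 days post-partum, and all 14 animals were slaughtered on Day 3 after an estrus synchronized in the same way in the 3 groups, with progesterone released from a vaginal device, prostaglandin and the GnRH agonist buserelin. Each library held RNA of cells scraped from the ampulla opposite to the side of the corpus luteum (CL) of 1 animal, so that the spread within a group is the spread between animals. Heifers and cows differed in having calved and in what goes with it, and these cannot be told apart here. The study's own contrasts of metabolic groups were made on the side of the CL, and the question put here is whether cows and heifers also differed on the side that did not ovulate.

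The ampulla is the upper part of the oviduct, where fertilization takes place. Its epithelium is made of ciliated cells, which move the oocyte and the fluid, and of secretory cells, which release proteins such as oviductal glycoprotein 1 (OVGP1) into the lumen under the control of estradiol and progesterone. Several steroid hormones are reported to be lower in the oviduct opposite to ovulation than in that on its side, without separate values for the ampulla. The animals were not inseminated, so that neither ampulla carried an embryo. Calving is followed by a period of uterine repair and immune activity in the genital tract.

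The 14 libraries held 3141770 to 6736441 counts on genes (median 5037657.5), 8.70 to 12.7% of all counted alignments, and levels are given as CPM, counts scaled to a common total of counts on genes, with TMM factors. At this depth 1 CPM stood for 3 to 7 reads. Markers of the labelled epithelium were present in every library, with FOXJ1 of ciliated cells at 278 to 436 CPM, PAX8 of secretory cells at 98.8 to 154 CPM and EPCAM at 165 to 258 CPM. Smooth muscle markers summed to 13.96 to 68.3 CPM. GAPDH, which every cell uses, was listed at 0 in all 14 libraries, so that a 0 in this table is not read as absence of a transcript. Every library correlated best with the other region of its own animal (r of 0.445 to 0.856 over 200 genes that vary between animals).

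One heifer stood apart. Heifer E lay at 104.4 on the first principal component, while the other 13 libraries lay between -29.2 and 24.9, and its median correlation with the others was 0.877, against 0.903 to 0.943. OVGP1 stood at 34804 CPM in heifer E and at 6013, 7908, 8354 and 12427 CPM in the other heifers, and the 10 most abundant genes took 12.9% of its counts, against 6.30 to 8.43% elsewhere. Lactating cow D was the lowest on the second component (-79.7). Lactating cow A was highest for many immune genes. Several of the results that rest on these libraries are given with and without them.

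**Figure D1:**
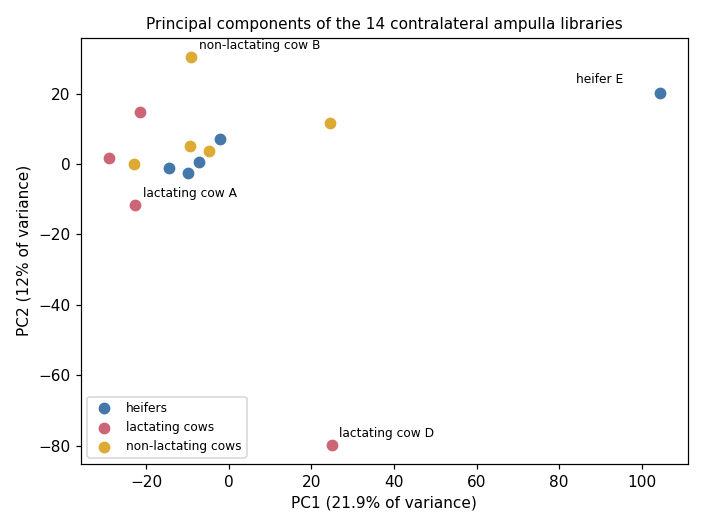
Principal components of log2 CPM in the 14 contralateral ampulla libraries, with the first on the x axis (21.9% of the variance) and the second on the y axis (12% of the variance), 1 point per animal, coloured by group. Heifer E sits alone at the right and lactating cow D alone at the bottom, and the other heifers lie among the cows.

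No gene was differentially expressed between the 9 cows and the 5 heifers. Of 14187 genes tested, 0 (0%) passed an adjusted p under 0.05 by edgeR's quasi-likelihood F test with Benjamini-Hochberg adjustment, and the smallest adjusted p was 0.982. DESeq2's Wald test and limma-voom with quality weights also called 0. Without adjustment, 613 genes (4.32%) had a p under 0.05, a share below the one at which that threshold was set, and the cows were higher in 348 (2.45%) and lower in 265 (1.87%). The median log2 fold change of all genes was 0.02.

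Differences of moderate size could be bounded for most genes. The median standard error of a log2 fold change was 0.24, and for 10150 genes (71.5%) the whole 95% interval of the difference lay within a 2-fold change in either direction. For 5451 genes (38.4%) it lay within a 1.5-fold change. For the remaining genes a difference of over 2-fold was not detectable or not excluded at this number of animals and this spread.

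Each cow group alone gave the same count. Between lactating cows and heifers 0 (0%) of 13926 genes passed (smallest adjusted p = 0.943 by edgeR), with an unadjusted p under 0.05 for 659 (4.73%), of which 348 were higher (2.5%) and 311 lower (2.23%). Between non-lactating cows and heifers 0 (0%) of 13642 passed (smallest adjusted p = 0.971 by edgeR), with an unadjusted p under 0.05 for 593 (4.35%), of which 317 were higher (2.32%) and 276 lower (2.02%). DESeq2 called 1 gene for lactating cows, ASPM, and 4 for non-lactating cows, LPCAT2, MKI67, PGA5 and UBD, none of which edgeR called. Both sets were compared with the same 5 heifers, so the cow groups do not give independent checks of direction.

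The genes with the smallest unadjusted p are described next, 8 in each direction. None of the 16 passed the test, with adjusted p between 0.982 and 0.990 by edgeR's quasi-likelihood test, and their values are a description of these animals.

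DLGAP5, a spindle protein of dividing cells, stood at 0.613, 1.76, 0, 0.852 and 0.161 CPM in heifers A to E. It stood at 5.55, 2.89, 3.49 and 6.05 CPM in lactating cows A to D and at 2.24, 3.39, 3.67, 3.67 and 2.57 CPM in non-lactating cows A to E. All cows lay above all heifers, at levels of few reads per library, and the log2 fold change was 2.42 ± 0.61 (SE). DIAPH3, a formin that shapes actin in cell division, had means of 3.45 ± 0.957 CPM (SD, n = 5) in heifers and 8.73 ± 3.68 CPM (SD, n = 9) in cows, and its groups barely did not overlap, since the highest heifer and the lowest cow both stood at 4.34 CPM after rounding. Normalized over all 56 libraries its groups did overlap, with the highest heifer at 4.50 CPM and the lowest cow at 4.39 CPM.

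ASPM, which organizes the spindle poles, stood at 11.7, 18.7, 23.9, 14.7 and 27.1 CPM in the heifers. It stood at 49.3, 76.8, 87.8 and 35.5 CPM in lactating cows and at 32.0, 36.7, 31.0, 49.9 and 14.8 CPM in non-lactating cows. All but non-lactating cow E lay above the heifers. MKI67, the proliferation antigen Ki-67, ranged from 4.50 to 11.7 CPM in heifers and from 5.43 to 85.0 CPM in cows (median 20.3), with the highest value in lactating cow A and the lowest cow inside the heifers' range.

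GMNN, geminin, which keeps replication origins from firing again in the same cycle, had means of 18.1 ± 4.66 CPM (SD, n = 5) in heifers, 26.2 ± 8.15 CPM (SD, n = 4) in lactating and 36.0 ± 5.65 CPM (SD, n = 5) in non-lactating cows. All 5 non-lactating cows, at 27.6 to 41.8 CPM, lay above the highest heifer at 24.7 CPM. So did lactating cows A and C, both at 32.6 CPM, while lactating cows B and D, at 15.6 and 24.0 CPM, did not. GPN3, a GTPase needed for the nuclear import of RNA polymerase II, ranged from 4.34 to 9.44 CPM in heifers and from 8.78 to 15.9 CPM in cows.

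UBD, the ubiquitin-like protein FAT10 that is induced by interferon gamma and TNF, was within a narrow range in heifers, at 3.07, 2.34, 1.98, 2.04 and 2.57 CPM. It stood at 34.5, 2.004, 7.37 and 6.44 CPM in lactating cows and at 8.33, 1.99, 11.7, 13.8 and 26.4 CPM in non-lactating cows. In each cow group 1 animal was within the heifers' range and the rest were above it. CADPS, which primes dense-core vesicles for release, ranged from 3.85 to 8.79 CPM in heifers and from 7.69 to 29.7 CPM in cows, highest in lactating cow C.

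**Figure D2:**
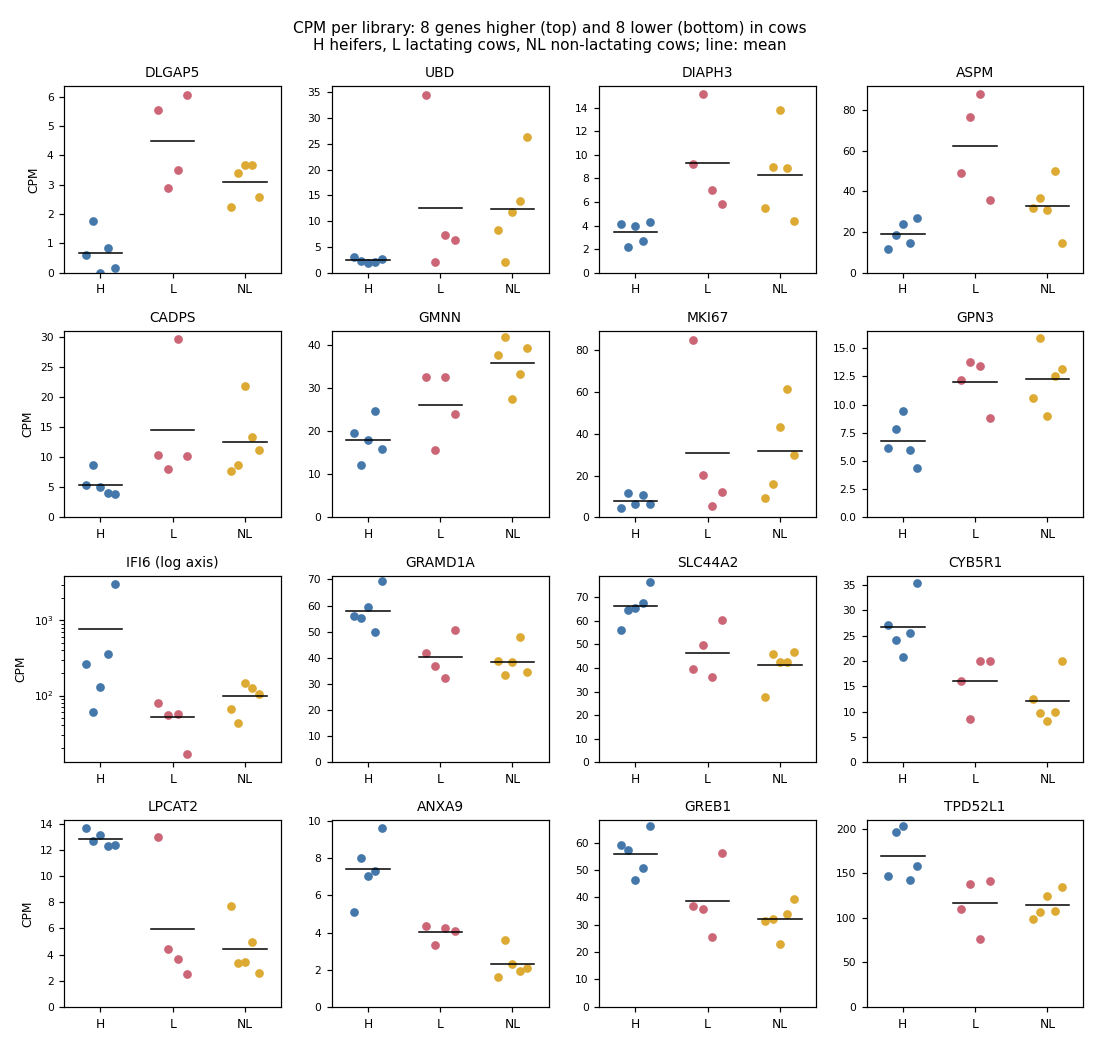
CPM of the 16 genes with the smallest unadjusted p, 8 with higher means in cows (top 2 rows) and 8 with lower means (bottom 2 rows), 1 point per library and a line at each group's mean, with a log axis for IFI6. Groups overlap in most panels, and IFI6 is carried by heifer E at 3042 CPM.

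IFI6, an interferon-induced protein, had the smallest unadjusted p of all and the lowest mean in cows relative to heifers among these genes. It stood at 260.3, 59.8, 129.8, 359 and 3042 CPM in heifers A to E, at 78.8, 55.7, 56.0 and 16.8 CPM in lactating cows and at 67.0, 42.8, 146, 126 and 104 CPM in non-lactating cows. The log2 fold change was -3.32 ± 0.66 (SE) with heifer E and -1.4 without it, a difference of over 1.5 times made by this library alone. Heifers D and A had the next highest values of the 14 animals, and heifers B and C were inside the range of the cows.

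CYB5R1, a membrane-bound cytochrome b5 reductase, stood at 27.2, 24.2, 20.9, 25.6 and 35.5 CPM in heifers. It stood at 15.96, 8.46, 19.97 and 19.9 CPM in lactating and at 12.5, 9.76, 8.04, 9.94 and 19.9 CPM in non-lactating cows. All cows lay below all heifers, and the log2 fold change was -0.94 ± 0.25 (SE), or -0.823 without heifer E.

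LPCAT2, a lysophosphatidylcholine acyltransferase that can also make platelet-activating factor, was almost constant in heifers, at 13.7, 12.7, 13.2, 12.3 and 12.4 CPM. It stood at 13.01, 4.45, 3.68 and 2.54 CPM in lactating and at 7.69, 3.39, 3.44, 4.97 and 2.57 CPM in non-lactating cows. Lactating cow A was at the level of the heifers and the other 8 cows were below it, with a log2 fold change of -1.34 ± 0.35 (SE). Without lactating cow A it was -1.66, with an adjusted p of 0.27 by edgeR's quasi-likelihood test.

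ANXA9, an annexin, had means of 7.42 ± 1.64 CPM (SD, n = 5) in heifers, 4.01 ± 0.458 CPM (SD, n = 4) in lactating and 2.30 ± 0.760 CPM (SD, n = 5) in non-lactating cows, and all cows lay below all heifers. TPD52L1, a protein of vesicle traffic, was the most abundant gene among these whose groups did not overlap, at 142 to 203 CPM in heifers and 76.0 to 141 CPM in cows. GREB1, an estrogen-induced co-factor of the estrogen receptor, ranged from 46.6 to 66.0 CPM in heifers and from 23.0 to 56.4 CPM in cows, where lactating cow D was the only one inside the heifers' range.

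The other 2 genes had narrow spreads. GRAMD1A, which carries cholesterol from the plasma membrane to the endoplasmic reticulum, had means of 57.9 ± 7.30 CPM (SD, n = 5) in heifers and 39.4 ± 6.34 CPM (SD, n = 9) in cows, and SLC44A2, a choline transporter, 66.2 ± 7.34 CPM (SD, n = 5) and 43.5 ± 9.09 CPM (SD, n = 9). In both genes 1 cow, lactating cow D, was inside the heifers' range.

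The direction was the same in both cow groups for all 16 genes, which share the heifers in both contrasts and were chosen on the cows together. The log2 fold change was 2.69 ± 0.73 (SE) in lactating and 2.16 ± 0.67 (SE) in non-lactating cows for DLGAP5, 1.68 ± 0.31 and 0.77 ± 0.31 for ASPM, and -0.89 ± 0.34 and -1.67 ± 0.37 for ANXA9. None of the 16 differed between lactating and non-lactating cows at an adjusted p under 0.05 by edgeR's quasi-likelihood test. With each of the 14 libraries left out in turn, the 16 genes kept their direction and the lowest adjusted p by edgeR was 0.137, for IFI6 without heifer B.

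**Figure D3:**
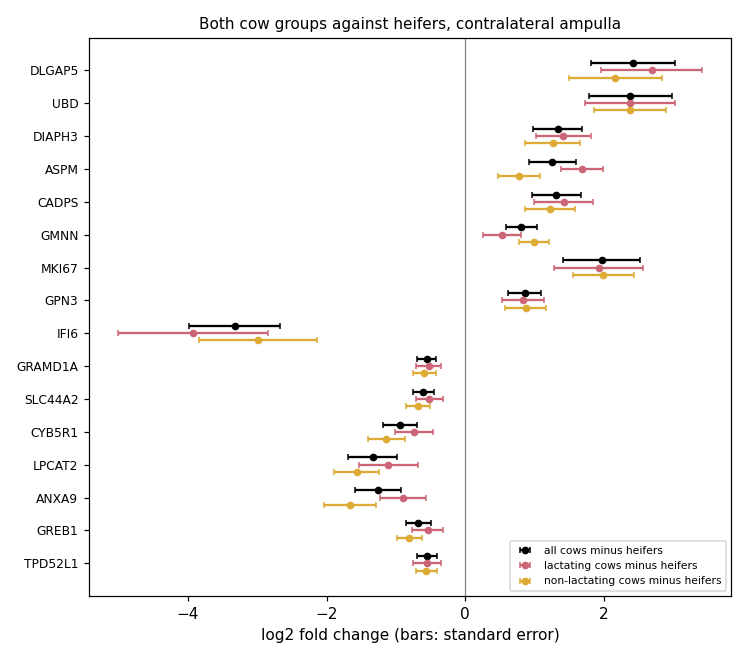
Log2 fold change (x axis) of the 16 genes for all cows, lactating cows and non-lactating cows, each minus heifers, with bars of 1 standard error. The 3 estimates of a gene lie on the same side of 0, and the widest bars belong to IFI6 in lactating cows (standard error 1.07).

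In 13 of the 14187 genes the 9 cows and the 5 heifers did not overlap in CPM. Cows lay above in 7 (0.0493%) and below in 6 (0.0423%), and none of the 13 passed the test. Besides DLGAP5 and DIAPH3, the genes above were CHRNB1, a subunit of the muscle acetylcholine receptor, NUDT7, a peroxisomal coenzyme A hydrolase, and 3 genes known only by LOC numbers. Besides CYB5R1, ANXA9 and TPD52L1, the genes below were ARMC9, EPHX2 and ZDHHC13, a palmitoyltransferase. These names were chosen after their values were seen.

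EPHX2, the soluble epoxide hydrolase, was the most abundant of them, with 343, 337, 405, 411 and 455 CPM in heifers. It stood at 275, 320.0, 253 and 277 CPM in lactating and at 306, 299.6, 316, 289 and 319 CPM in non-lactating cows, and the log2 fold change was -0.40 ± 0.11 (SE). NUDT7 was at 80.1 to 82.0 CPM in heifers and at 86.2 to 116 CPM in cows, a log2 fold change of 0.25 ± 0.11 (SE). These were gaps of small size between narrow groups.

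Gene lists were read by how many of their tested members stood higher or lower, beside the median of 0.02 and the background of 2.45% higher and 1.87% lower at an unadjusted p under 0.05. In all 35 lists with a tested member, 0 members passed the adjusted test. Members of a list share pathways and libraries and are not independent.

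Proliferation genes stood higher in cows in 24 of 27 tested, with a median log2 fold change of 0.31, and 7 were higher and 0 lower at an unadjusted p under 0.05. In lactating cows the median was 0.27 and in non-lactating cows 0.37, with 7 and 6 higher at that threshold. The summed level of the list was 304 to 345 CPM in heifers, 326 to 575 CPM in lactating and 346 to 549.6 CPM in non-lactating cows. Apart from ASPM and MKI67 the leading members were CENPF, a kinetochore protein, at 5.14 to 18.7 CPM in heifers and 8.78 to 61.4 CPM in cows, and KIF11, a spindle motor, at 0.803 to 7.56 and 2.41 to 29.4 CPM. With any 1 library left out, 6 to 8 members were higher at that threshold, and histone genes, which are made in S phase, had a median of -0.18 with 5 of 16 higher.

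The MHC class II genes, which display peptides to helper T cells, had the largest median of the lists with 8 or more tested members, 1.59, with all 8 higher and 4 at an unadjusted p under 0.05. CIITA, their master activator, stood at 8.79, 7.81, 3.95, 12.9 and 13.97 CPM in heifers, at 91.4, 8.91, 140.2 and 16.4 CPM in lactating and at 15.4, 6.57, 9.64, 39.6 and 10.9 CPM in non-lactating cows. BLA-DQB, a class II beta chain, was at 256 and 316 CPM in lactating cows A and C and between 0.199 and 48.8 CPM in the other 12 animals. The median of the list was 2.05 in lactating and 0.37 in non-lactating cows, and 2 members were at that threshold without lactating cow A, as without lactating cow C. DQ genes of cattle have close copies and differ between haplotypes, so that reads could be split between them or lost, and their levels are uncertain.

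MHC class I genes and their helpers stood higher in 11 of 14, with a median of 0.39 and 4 at an unadjusted p under 0.05. PSMB9, a subunit of the immunoproteasome, ranged from 9.57 to 17.5 CPM in heifers and from 11.5 to 74.8 CPM in cows (median 20.5), and NLRC5, the class I activator, had a log2 fold change of 1.12 ± 0.39 (SE). Without heifer D 2 members were at that threshold.

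Markers of leukocytes were also highest in one of these animals. T and NK cell markers had a median of 0.93 with 11 of 12 higher and 4 at an unadjusted p under 0.05. Macrophage markers had a median of 0.81 with 10 of 10 higher and 0 at that threshold. The summed T and NK cell level was 44.1 to 72.3 CPM in heifers, 29.1 to 249 CPM in lactating and 31.3 to 148 CPM in non-lactating cows, and the summed macrophage level 70.5 to 93.9, 61.0 to 477 and 39.0 to 132 CPM. Both lists peaked in lactating cow A, and without it 1 of the T and NK cell markers was at the threshold, as without heifer B or heifer C, and 2 were without non-lactating cow D. B and plasma cell markers (median -0.25, 1 of 4 higher) summed to 130.0 to 239 CPM in heifers and 93.5 to 329 CPM in cows. They were highest in lactating cow A as well. The 1 higher member was IGJ, the joining chain of secreted antibodies, at 188 CPM in that animal against 5.62 to 14.9 CPM in heifers. Fibroblast markers (median 1.12, 4 of 6 higher) summed to 50.1 to 119.6 CPM in heifers, 49.3 to 523 CPM in lactating and 48.0 to 230.1 CPM in non-lactating cows, highest in lactating cow A and next in lactating cow D. Endothelial markers (median 0.51, 6 of 6 higher) summed to 209 to 341, 193 to 472 and 203 to 259.9 CPM. Whether more leukocytes were recovered or more RNA was made per cell cannot be told apart in such libraries, and the part of these other cell types in the MHC and complement values was not tested.

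Complement genes stood higher in 16 of 19, with a median of 0.57 and 4 higher and 1 lower at an unadjusted p under 0.05. C3, the central component, was at 1602, 4155, 1970.3, 3957 and 3629 CPM in heifers, at 13601, 1481, 5439.9 and 4763 CPM in lactating and at 2559.6, 1676, 2724, 4893 and 3675 CPM in non-lactating cows. Apart from lactating cow A, the ranges of heifers and cows largely overlapped. C1R, a protease of the first component, was at 339.8 CPM in that animal and at 1.02 to 48.6 CPM in the other 13, and SERPING1, its inhibitor, had means of 36.2 ± 17.2 CPM (SD, n = 5) in heifers and 82.4 ± 59.9 CPM (SD, n = 9) in cows. In place of 4 members, 1 was higher at that threshold without lactating cow A or without heifer C, and 0 without heifer A.

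Interferon-stimulated genes stood lower in cows in 24 of 30, with a median of -0.19, 1 higher and 7 lower at an unadjusted p under 0.05. ISG15, a ubiquitin-like protein induced by interferon, was at 16.6, 5.86, 19.3, 16.5 and 94.4 CPM in heifers, at 14.2, 4.45, 13.8 and 5.66 CPM in lactating and at 7.69, 1.79, 13.3, 7.78 and 9.17 CPM in non-lactating cows. OAS1X, of the 2'-5'-oligoadenylate synthetase family, was at 98.3 CPM in heifer E and at 4.49 to 18.1 CPM in the other heifers, against 1.17 to 22.3 CPM in cows. The median was -0.402 without lactating cow A, -0.363 without heifer B, -0.324 without lactating cow C and -0.0998 without non-lactating cow B. Without heifer E 2 members were lower at the threshold, and the log2 fold change went from -1.82 to -0.754 for ISG15, from -3.04 to -1.73 for IFI27 and from -1.82 to -0.352 for OAS1X. CXCL10, a chemokine induced by interferon gamma, went the other way, at 0.161 to 5.49 CPM in heifers and 2.30 to 169 CPM in cows (median 6.76).

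Cholesterol synthesis genes had a median of -0.11, with 16 of 24 lower and 5 at an unadjusted p under 0.05. The median was -0.194 without heifer C and -0.0765 without heifer E. FDFT1, squalene synthase, was at 89.8, 85.5, 102, 86.7 and 131 CPM in heifers, at 57.9, 88.4, 56.4 and 63.2 CPM in lactating and at 53.2, 73.1, 77.6, 79.1 and 62.4 CPM in non-lactating cows. Lactating cow B was inside the heifers' range and the other 8 cows were below it. The summed level of the list ranged from 887 to 1279 CPM in heifers, highest in heifer E, and from 839.98 to 991 CPM in cows. Heifers B, C and D, at 887, 922 and 946 CPM, were inside the range of the cows. Without heifer A or lactating cow B 3 members were at that threshold.

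Heat shock and unfolded protein response genes stood lower in 19 of 22, with a median of -0.20 and 5 at an unadjusted p under 0.05. HSPA1A, an inducible HSP70 and the most abundant of those named, was at 2445, 2296, 2531, 2579 and 2120.2 CPM in heifers, at 1585, 1658, 1500.4 and 1992 CPM in lactating and at 2016, 2516, 2097, 1772 and 1807 CPM in non-lactating cows, with a log2 fold change of -0.35 ± 0.13 (SE). PDIA4 and HSPA5, chaperones of the endoplasmic reticulum, rested on heifer E, where PDIA4 was at 533 CPM against 139.9 to 225 CPM in the other heifers. Their log2 fold changes went from -0.60 and -0.55 to -0.0607 and -0.209 without that animal, and 1 member of the list was at the threshold. Without heifer A, lactating cow C or non-lactating cow B or D there were 2, and without heifer C, lactating cow A or non-lactating cow E 3.

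Lists of the epithelium itself held 1 higher and 1 lower member at the threshold. Ciliated cell markers had a median of 0.13 with 19 of 22 higher and 1 at an unadjusted p under 0.05, and secretory cell markers -0.04 with 4 of 12 higher and 1 lower at that threshold. The ciliated member was HYDIN, lowest in heifer E at 1127 CPM. Its log2 fold change went from 0.317 to 0.186 without that animal. Epithelial markers had a median of -0.20 with 10 of 10 lower and 0 at that threshold, and their summed level was 2837 CPM in heifer E, 1623 to 1697 CPM in the other heifers and 1387 to 2044 CPM in cows. Steroid receptors and steroid-responsive genes had a median of -0.07, and 1 of 20, GREB1, was lower at that threshold. ESR1, the estrogen receptor alpha, had means of 326 ± 64.6 CPM (SD, n = 5) in heifers and 334 ± 68.1 CPM (SD, n = 9) in cows, a log2 difference with a 95% interval of -0.289 to 0.364. PGR, the progesterone receptor, had means of 32.3 ± 9.82 and 31.6 ± 12.3 CPM, with an interval of -0.574 to 0.498.

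Lists of energy and growth also held few members at the threshold. For glycolysis and pyruvate it was 0 of 30 (median -0.15), for fatty acid and triglyceride synthesis 0 of 16 (median -0.06), for the prostaglandin pathway 0 of 11 (median 0.01) and for the circadian clock 0 of 19 (median -0.03). Among fatty acid oxidation genes ETFDH, which passes electrons from oxidation to ubiquinone, and CPT1A, the carnitine palmitoyltransferase of the liver type, were lower, 2 of 25 (median -0.08). In the IGF, insulin and growth hormone axis IGFBP5 and IGFBP6 were lower, 2 of 14 (median -0.09). IGFBP6 was at 169.6 CPM in heifer E, and its log2 fold change went from -0.96 to -0.168 without it, while that of IGFBP5 went from -0.41 to -0.374. Among immediate early genes ZFP36 and JUN were lower, 2 of 18 (median 0.01).

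The other lists were as follows. Extracellular matrix genes had a median of -0.05, with 2 higher and 1 lower of 21 at an unadjusted p under 0.05, and antioxidant genes -0.03, with 1 higher and 1 lower of 34. Chemokines and cytokines had a median of 0.30 with 3 higher of 16, and mucosal defence genes 0.36 with 1 lower of 14. In lactating and non-lactating cows these medians differed in sign, at 0.25 and -0.04 for chemokines and cytokines and 0.70 and -0.38 for mucosal defence. Ion and water transport genes had a median of -0.0029 with 1 lower of 16, the water channel AQP5. Its log2 fold change went from -0.64 to -0.396 without heifer E. Endothelial markers had 1 higher of 6 at that threshold, EMCN, and fibroblast markers 2 higher of 6, FN1 and THY1. Smooth muscle markers had 0 of 5, B and plasma cell markers 1 higher and 1 lower of 4, neutrophil and mast cell markers 0 of 2, and the 1 mesothelial gene tested, UPK3B, was lower. The log2 fold change of UPK3B went from -0.468 to -0.169 without heifer E. Of red blood cell genes none was tested, and mitochondrial genes are not among the genes counted.

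The 19 tested genes of the study's ipsilateral ampulla list, which set lactating cows against heifers, were also read here. Of them 7 were higher and 5 lower at an unadjusted p under 0.05, against the background of 2.45 and 1.87%, and 0 passed over all genes. Among those higher, MKI67, CENPF and KIF11 were also counted with the proliferation genes above, so the counts of both lists share these genes. The list was chosen on libraries of the other ampulla from the same heifers and cows, so it is not independent evidence of a direction. In lactating cows 9 were higher and 4 lower of 18 tested, and in non-lactating cows 3 and 3 of 18. By their labels the non-lactating cows did not enter that choice. The ipsilateral ampulla library labelled heifer B, however, correlated best with the isthmus of non-lactating cow B (r of 0.777). Whether the choice was free of non-lactating cows is thus uncertain. RUNX2, a transcription factor, had means of 15 ± 6.32 CPM (SD, n = 5) in heifers, 39.3 ± 9.21 CPM (SD, n = 4) in lactating and 20.5 ± 4.90 CPM (SD, n = 5) in non-lactating cows. ABCG1, which exports cholesterol, had 503 ± 126, 307 ± 88.3 and 318 ± 120.4 CPM. The genes listed for both cow groups in the ipsilateral isthmus gave 0 of 21 at that threshold, with a median of -0.18.

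Of 16 genes that the study discusses for metabolic groups, 13 could be tested here. BLA-DQB, C1S and SERPING1 were higher and TGFA, a ligand of the EGF receptor, lower at an unadjusted p under 0.05, and none passed over all genes. TGFA was at 42.1, 49.4, 56.7, 43.6 and 33.7 CPM in heifers, at 34.2, 31.4, 23.3 and 44.1 CPM in lactating and at 17.3, 25.3, 27.3, 25.3 and 32.3 CPM in non-lactating cows. All non-lactating cows lay below the heifers and 3 of the lactating cows did not reach the heifers' median. PDK4, which inhibits pyruvate dehydrogenase, differed in sign between the cow groups, with 0.65 ± 0.52 (SE) in lactating and -0.99 ± 0.40 (SE) in non-lactating cows against heifers, and STEAP4, a metalloreductase, likewise with 0.44 ± 0.27 and -0.44 ± 0.21, and none of these passed the test. Between lactating and non-lactating cows PDK4 passed only without a filter on low counts (log2 fold change 1.64, adjusted p = 0.0475 by edgeR). GAT, SPP1 and ME3 had too few counts.

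Between lactating and non-lactating cows 0 (0%) of 14067 genes passed edgeR's test, with 712 (5.06%) at an unadjusted p under 0.05, and DESeq2 called 2, SGK1 and RMRP. SGK1, a kinase induced by glucocorticoids that regulates sodium transport, had the smallest adjusted p (0.206 by edgeR's quasi-likelihood test) and a log2 fold change of 1.84 ± 0.29 (SE). It was at 106, 119, 46.3 and 44.1 CPM in lactating and at 27.6, 23.5, 17.0, 24.0 and 18.3 CPM in non-lactating cows, which did not overlap. Heifers, at 20.04, 44.5, 87.8, 23.7 and 37.7 CPM, spanned most of both, so that the cows together did not stand apart from them.

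The difference between cows and heifers was then compared with that in 2 other tissues, by the interaction of tissue and group. In the ipsilateral ampulla 4 libraries go against their animal numbers. The library numbered as heifer B correlated at 0.777 with the isthmus of non-lactating cow B and at 0.036 with that of heifer B, and the library numbered as non-lactating cow B at 0.747 with heifer B and at 0.091 with its own number. In addition, the libraries numbered as lactating cow B and non-lactating cow C carry the opposite group name there, which leaves them among the cows. The library numbered as lactating cow B correlated at 0.799 with non-lactating cow C and at -0.212 with its own number. That numbered as non-lactating cow C correlated at 0.795 with lactating cow B and at -0.24 with its own number. Both thus went with their group name and not with their number. All 4 libraries were kept in their labelled groups, and values without heifer B and non-lactating cow B are given beside them. Against the ipsilateral ampulla 0 (0%) of 14997 genes differed, with 242 (1.61%) at an unadjusted p under 0.05 and a smallest adjusted p of 1 by edgeR's quasi-likelihood test, and against the contralateral isthmus 0 (0%) of 15111, with 452 (2.99%) and 0.914. DESeq2's likelihood ratio test called 0 in both. Without heifer B and non-lactating cow B, the first comparison also gave 0 of 15066 genes by edgeR, with 197 (1.31%) at an unadjusted p under 0.05. The interval of the difference between tissues lay within a 2-fold change for 8834 genes (58.9%) and 8621 genes (57.1%), so larger differences were not excluded for the rest. Libraries of 1 animal were treated as separate here, and a block for the animal number also gave 0. Against the ipsilateral ampulla that block put the 4 libraries named above with another animal, so it could not check the pairing there.

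Among the 16 genes, the mean levels in the 2 ampullae are given side by side, normalized over all 56 libraries. For UBD heifers and cows had means of 2.44 and 12.5 CPM in the contralateral, 1.22 and 8.05 CPM in the ipsilateral ampulla and 1.82 and 8.10 CPM in the contralateral isthmus. MKI67 stood at 8.13 and 31.3, 3.65 and 24.9, and 6.21 and 14.5 CPM in the same order. For these genes cows had the higher mean in each of the 3 tissues. Without heifer B and non-lactating cow B the ipsilateral means were 1.40 and 8.86 CPM for UBD and 3.60 and 27.2 CPM for MKI67.

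For the next genes the ipsilateral means lay closer together. LPCAT2 had means of 13.04 CPM in heifers and 5.07 CPM in cows in the contralateral ampulla, but 16.3 and 14.9 CPM in the ipsilateral ampulla, with a difference between the tissues of -1.22 ± 0.62 (SE, log2). Without heifer B and non-lactating cow B its ipsilateral means were 17.5 and 10.1 CPM. That difference was then -0.511 ± 0.53, so that the value rested on these animals. CYB5R1 had 27.1 and 13.8 CPM, but 24.6 and 21.8 CPM in the ipsilateral ampulla (-0.78 ± 0.29), and GPN3 6.83 and 12.1 CPM, but 12.03 and 10.4 CPM (1.05 ± 0.28). Without heifer B and non-lactating cow B these 2 differences were -0.722 ± 0.33 and 0.988 ± 0.31. None of these differences passed, with an adjusted p of 1 by edgeR's quasi-likelihood test for each, although GPN3 had the smallest unadjusted p of all genes in that comparison.

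**Figure D4:**
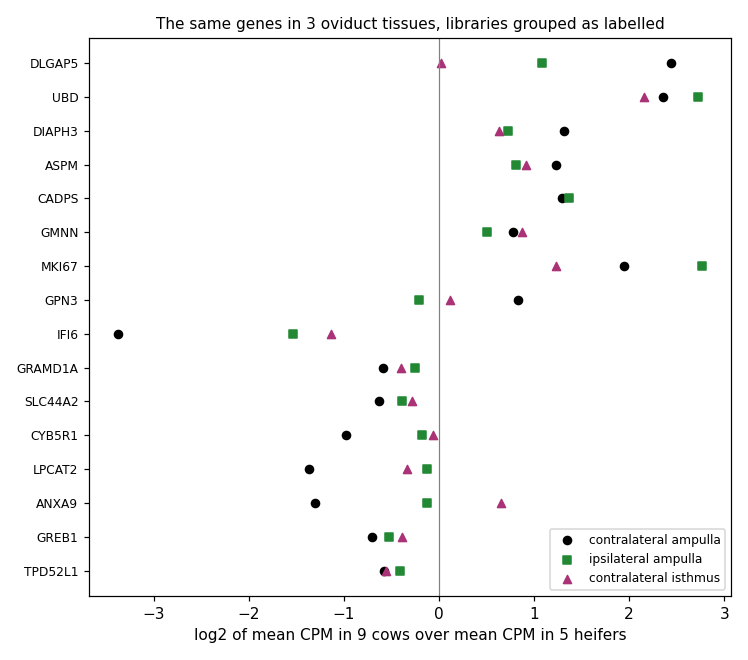
Log2 of the mean CPM in 9 cows over that in 5 heifers (x axis) for the 16 genes in 3 tissues, with all libraries in their labelled groups, circles for the contralateral ampulla, squares for the ipsilateral ampulla and triangles for the contralateral isthmus. CADPS in the contralateral isthmus, at 0 CPM in 4 heifers, is left out, the genes were chosen on the circles, and UBD, CADPS and MKI67 have squares farther from 0 than their circles.

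IFI6 in heifer E was high in the other tissues as well. On the same scale heifer E had 3160.5 CPM in the contralateral and 888 CPM in the ipsilateral ampulla, 538 CPM in the contralateral and 518 CPM in the ipsilateral isthmus, and the highest of the other heifers had 364, 337, 177 and 251 CPM. Heifer E was thus the highest heifer for this gene in all 4 tissues. The difference between tissues was -1.81 ± 0.92 (SE, log2) from the ipsilateral ampulla and -2.25 ± 0.83 from the contralateral isthmus, neither of which passed edgeR's test (adjusted p = 1).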

How the data were processed

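Per the labels and the study's methods, the authors made stranded libraries (NuGEN Encore Complete) from total RNA, aligned the single-end reads to Btau_4.6.1 by TopHat2 (version 2.0.13), counted them on genes with HTSeq (version 0.6.1), by strand and in intersection-strict mode, and deposited raw counts for 31903 genes. Alignments off genes were left out. Columns were grouped by their names, and animals were lettered within groups by animal number. In R 4.3.3, edgeR 4.0.16 (TMM, filterByExpr with a minimum count of 10, quasi-likelihood F test, Benjamini-Hochberg adjusted p under 0.05) was fitted to the 14 libraries, and to pairs of groups, without covariates. Standard errors were the log2 fold change over the root of F, and DESeq2 1.42.0 and limma 3.58.1 served as alternatives. The fits were tested on simulated data. Pairs of libraries within a group differed by more than sampling noise (26 pairs, lowest chi-square divided by its degrees of freedom 7.11). Members, lists and tests were chosen with earlier results of these data known. Named are the 8 genes of smallest unadjusted p in each direction (LOC numbers left out), up to 4 such members per list and genes the study discusses, with others said to be chosen later.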

Additional observations from a re-analysis of the deposited data

Results flagged for a closer look

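In groups of 4 or 5 libraries, a library was marked where its gap to the next made up more of the group's range than Dixon's 95% critical value. Of 162 groups looked at, for 54 levels and list sums, 23 (14.2%) had such a library, and chance marks about 1 in 20. Heifer E accounted for 14, lactating cow A for 4, lactating cow B for 2, and lactating cows C and D and non-lactating cow A for 1 each. The causes were not tested.

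In heifer E the summed level was 47220.5 CPM for secretory cell markers (other heifers 14575 to 20094), 36921 CPM for steroid-responsive genes (8106 to 14232), in both of which OVGP1 at 34804 CPM had the largest share, and 2837 CPM for epithelial markers (1623 to 1697). Ciliated cell markers were low there, at 11748 CPM (13786 to 14336). Interferon-stimulated genes summed to 5079 CPM (916 to 1829), of which IFI6 gave 3042 CPM. Mucosal defence genes summed to 13888 CPM, glycolysis genes to 2667 CPM, extracellular matrix genes to 2948 CPM and antioxidant genes to 3133 CPM, each above the other 4 heifers. So were B and plasma cell markers at 239 CPM, neutrophil and mast cell markers at 455 CPM, most of it KIT, and mesothelial markers at 102 CPM, most of it UPK3B.

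Lactating cow A was high among lactating cows for T and NK cell markers (249 CPM, others 29.1 to 49.8), macrophage markers (477 CPM, others 61.0 to 116), UBD (34.5 CPM, others 2.004 to 7.37) and the genes listed by the study for the ipsilateral ampulla (1823 CPM, others 1213 to 1283). OVGP1 stood at 18099 CPM in lactating cow B (others 2801 to 5035), and with it the sum of steroid-responsive genes at 20458 CPM. CADPS stood at 29.7 CPM in lactating cow C, the IGF and insulin axis summed to 934 CPM in lactating cow D (others 655 to 702), and SLC44A2 was low in non-lactating cow A, at 27.9 CPM (others 42.5 to 47.0).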

How the results depend on the processing

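The pooled contrast of cows and heifers called 0 genes under all 24 alternatives, with a smallest adjusted p of 0.0999 to 0.993 across settings without a left-out library. With 1 library left out in turn it called 0 to 0 genes, and the contrasts of lactating cows with heifers, of non-lactating cows with heifers and of lactating with non-lactating cows called 0 to 1: APOA1 without lactating cow D (adjusted p = 0.00452 by edgeR), PGA5 without heifer E (0.00899), and C25H16orf89 without lactating cow B or SGK1 without lactating cow D (0.0389 and 0.0394). DESeq2's Wald test called 1, 4 and 2 genes in these 3 contrasts. Without a filter on low counts the last contrast called 16, among them SGK1, RMRP, ABCA13, SPP1, PDK4 and MHC class II genes. The other alternatives of the 3 contrasts, and all those of the interactions, called 0. Of 1808 refitted log2 fold changes of 76 named genes, 1807 kept their direction. CCL5 went from 1.76 to -1.27 with the first digit of the animal number as a block. Since no fit of the pooled contrast called a gene, the threshold could not separate these refits. A kept direction does not mean a kept size, as OAS1X went from -1.82 to -0.352 without heifer E. That block and the fit without heifer E and lactating cow D were added after seeing the data. The meaning of the digit is not given. Only digits 2 (2 heifers and 1 non-lactating cow) and 5 (1 animal of each group) held both heifers and cows. The difference between cows and heifers in that fit thus rested on those animals alone. With the block 0 class II, class I, complement and T and NK cell genes were higher at an unadjusted p under 0.05. At that threshold 2 proliferation genes were higher, and 2 interferon-stimulated and 2 cholesterol genes were lower. With that block the medians were -0.817 for interferon-stimulated, -0.312 for cholesterol and 0.81 for class II genes. The count at that threshold over all genes was 1747 without a filter and 1001 by limma-voom, which gave heifer E a weight of 0.167 and had 1 interferon-stimulated gene and 3 heat shock genes lower, and 2 class II, 1 complement and 2 T and NK cell genes higher at that threshold. The causes were not tested. No paired analysis was possible because, between groups, a heifer and a cow are never the same animal and the columns carry no replicate numbers of the labels. The tissue interactions, where an animal gave both libraries, were also fitted with a term for each animal number. Some ipsilateral ampulla libraries did not match their number, so that term paired them wrongly. Genes of a few CPM rest on few reads, and 9 cows against 5 heifers limit what could be called.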

Other observations

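Some genes were near 0 in part of the animals and well above it in others, and these were chosen after their values were seen. COX7C, a subunit of cytochrome c oxidase, had a count of 0 in 6 of the 14 contralateral ampulla libraries (2 heifers and 4 cows) and up to 113 counts in the others. In 5 of these 6 animals it was also at 0 in the contralateral isthmus. SERPINA1, alpha-1-antitrypsin, was at 0 in 2 cows and at 55 to 357 counts in the other 12 animals.

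APOA1, the main protein of high-density lipoprotein, was at 50.7, 51.8, 63.5, 104 and 92.0 CPM in heifers, at 1.56, 0, 0.582 and 97.8 CPM in lactating cows and at 0.641, 1.20, 55.1, 33.5 and 79.5 CPM in non-lactating cows. The heifers were all above 50 CPM, while 5 of the 9 cows were below 2 CPM and the other 4 were between 33.5 and 97.8 CPM. PGA5, a pepsinogen gene, was at 0.341 to 8.19 CPM in heifers, at 0.173, 13.4, 0.194 and 12.3 CPM in lactating cows and at 10.3 to 28.7 CPM in non-lactating cows, with non-lactating cows above all heifers. In the contralateral isthmus PGA5 had a count of 0 in 12 of the 14 animals.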
